A study of Rattus norvegicus with 24 samples.

Results

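The genes described here encode the proteins of the cytosolic ribosome, measured in the livers of 24 male Wistar rats. They were chosen by symbol in the annotation of the array: names that start with Rpl or Rps and a number, the stalk proteins Rplp0 to Rplp2, and Rpsa, leaving out the ribosomal S6 kinases and symbols marked as pseudogenes. Only probe sets paired with 1 symbol were taken, and the brightest of these stood for its gene. This gave 117 of the 17245 genes measured. Of the 117, 56 encode standard ribosomal proteins, 22 of the small subunit and 34 of the large subunit. A further 60 are like-named copies and paralogs, and the last is Rps19bp1, whose product binds Rps19 and is not a ribosomal protein. Of the 80 standard proteins of the cytosolic ribosome, Rack1 has a probe set of its own but lies outside the symbol rule. Another 13 were found only on probe sets that carry several symbols, and 10 on neither kind.

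The rats were fed a diet with 5% protein for 4 weeks, 20% protein for 4 weeks, 5% protein for 1 week or 20% protein for 1 week, with 6 animals in each group and 1 array per animal. These are the diets and times of the sample titles. A code in the sample descriptions has 4 and 18 where the titles have 5 and 20, and the design text names 4 weeks alone and calls 20% the normal diet. No other treatment, transgene or genotype is named, and age is not given in the sources used here.

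A cytosolic ribosome joins a small subunit, which threads the mRNA and reads its codons, to a large subunit, which forms the peptide bond and passes the new protein out through a tunnel. Each protein is present in about 1 copy per ribosome, apart from those of the stalk, so a cell that builds ribosomes needs all of them at once. In mammals most of their mRNAs begin with an unbroken run of C and T, the terminal oligopyrimidine or TOP motif, through which the kinase complex mTORC1 and the RNA-binding protein Larp1 control translation with the supply of amino acids. In rat and mouse liver, feeding and fasting are known to change how many of these mRNAs sit on polysomes. An array of whole-tissue RNA reads the amount of the mRNA and not its translation.

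The start of the mRNA is the part of these genes that carries the TOP motif, so the 30 bases around the annotated start are shown for 11 members, 10 bases before the start and 20 from the start on. They are RefSeq sequences of the rat build GRCr8, written 5′ to 3′ on the gene's strand. Capitals mark the longest unbroken run of C and T that touches the 10 bases on either side of the start. The first 8 are standard genes in which that run has 7 bases or more.
Rps24, chr16:96507-96536, + strand: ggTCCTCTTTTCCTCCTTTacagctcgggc
Rps7, chr6:50999426-50999455, - strand: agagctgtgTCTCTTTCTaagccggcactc
Rps26, chr7:1643385-1643414, - strand: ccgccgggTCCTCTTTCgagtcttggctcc
Rpl13, chr19:68062504-68062533, + strand: cggtgcccgaTCCTTTCCgctcggccgttc
Rplp0, chr12:46718371-46718400, - strand: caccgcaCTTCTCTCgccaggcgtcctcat
Rpl12, chr3:36661930-36661959, + strand: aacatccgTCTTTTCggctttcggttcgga
Rpl37a, chr9:81748081-81748110, + strand: cccgttgcgTCTCTTCCTCTTCgggcttgg
Rpl28, chr1:78083513-78083542, - strand: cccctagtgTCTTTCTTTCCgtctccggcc
Rps12 and Rps19, the small subunit genes with the largest diet differences at 4 weeks, have no such run at the annotated start.
Rps12, chr1:23500065-23500094, + strand: gaagCCCagcagagcgcttaaataccgtca
Rps19, chr1:89608678-89608707, + strand: cttgtgcgcccgggaaaCCCCgtcgttccc
Rpl15l1, a copy of Rpl15, carries one.
Rpl15l1, chr12:15340855-15340884, + strand: atctttagCCTTTCCTCTagtggcagccat

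Of the 56 standard genes, 48 were matched to a RefSeq promoter window of 250 bases before and 50 bases after the start. A run of at least 7 C or T that touches the 10 bases on either side of the start was present in 37 of the 48 (77.1%). The median longest run was 10 bases. Some of these runs, such as those of Rpl7a, Rps3 and Rpl21, end before the annotated start. They lie outside the annotated mRNA, so the count is not a count of TOP motifs. The share was 78.9% in the small subunit and 75.9% in the large subunit. It was 33.3% in the 45 copies and paralogs matched, and 19.1% in all 27457 promoters of the table. Searched on both strands, the ETS-type sequence CCGGAAG was found in 25% of the standard promoters and 9.22% of all promoters. The YY1-type sequence AAGATGGC was found in 10.4% and 3.44%, and the GC box GGGCGG in 54.2% and 34.9%. The E box CACGTG was found in 8.33% and 6.65%, and the TATA box TATAAA in 12.5% and 14.3%. Overlaps between these sequences were allowed. A match is a match of letters and not evidence that a factor binds there.

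Hepatocyte markers were the brightest of the cell type lists, with a summed intensity of 70392 to 85250 in the 5% group at 4 weeks, 76844 to 90947 in the 20% group at 4 weeks, 78191 to 83086 in the 5% group at 1 week and 78098 to 87070 in the 20% group at 1 week. At 4 weeks 4 of the 9 hepatocyte markers measured were called lower on 5% protein, and at 1 week none was. At 4 weeks 7 of the 9 Kupffer cell and macrophage markers measured were called lower on 5% protein, and their summed intensity was 2774 to 3548 on 5% protein and 4194 to 7022 on 20% protein. Of the 6 erythroid markers measured, 2 were called lower at 4 weeks and 3 at 1 week, with sums of 692 to 5044 against 2912 to 9375 at 4 weeks and 1455 to 6478 against 5269 to 11600 at 1 week. At 4 weeks 3 of 8 stellate cell and fibroblast markers, 2 of 5 endothelial markers, 2 of 8 lymphocyte markers and 1 of 11 proliferation markers were called lower on 5% protein, 2 of 5 cholangiocyte markers were called higher, and none of 7 neutrophil markers was called. At 1 week 5 of the 11 proliferation markers were called lower. Over all genes 12.4% were called lower and 13.4% higher at 4 weeks, and 2.44% lower and 1.86% higher at 1 week. The 1 of 11 proliferation markers called lower at 4 weeks is 9.09%, below the share of all genes. The part of these markers in the results below was not tested. The animals numbered 51 to 53 and 77 to 79, which make up the 20% group at 1 week, stood apart from each other: 4.3% of all genes were called higher and 6.53% lower in animals 77 to 79 than in 51 to 53. In the 5% group at 1 week, 0.342% were called higher and 0.441% lower in animals 74 to 76 than in 49, 50 and 54. The median shift of the 117 members was 0.085 in the 5% group and 0.076 in the 20% group. RMA values carry no detection call, so no marker can be said to be at 0.

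At 4 weeks the family as a whole was higher on the low-protein diet. A gene was called when its adjusted p was below 0.05 in 1 limma fit of the 4 group means over all 17245 genes, with Benjamini-Hochberg adjustment, and each difference below is the log2 intensity on 5% protein minus that on 20% protein. Of the 117 members, 84 were called higher, 1 was called lower and 32 were not called. Over all genes 13.4% were called higher and 12.4% lower. The median difference of the members was 0.52, a fold of 1.43, against -0.012 over all genes. Of the members, 48 were called higher by more than 1.5-fold, against 971 of all 17245 genes. In 67 members each animal on 5% protein lay above each animal on 20% protein, against 6.55% of all genes. In whole-tissue RNA, fewer cells of a type and less RNA per cell cannot be told apart.

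Of the 84 called higher, 54 were standard genes. The fitted difference at 4 weeks was above 0 in all 56 standard genes, against 47.6% of all genes. Their median difference was 0.65, a fold of 1.56, and the range ran from 0.20 for Rpl41 to 1.30 for Rps12. The 5% and 20% groups did not overlap in 49 of them. The 2 that were not called were Rpl41 (0.20 ± 0.09, SE, adjusted p = 0.0938) and Rps27 (0.45 ± 0.18, adjusted p = 0.0682). The probe set of Rps27 was dim, with a log2 intensity from 4.30 to 5.96 over all animals. Only 4 of the 56 standard genes had a mean below 9.

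The difference was visible in each animal. The family level of an animal was taken as the median over the 56 standard genes of their log2 intensity minus the gene's mean over the 24 arrays. It was 0.17, 0.35 and 0.46 (lowest, median and highest) in the 5% group at 4 weeks, and -0.38, -0.34 and -0.17 in the 20% group at 4 weeks. At 1 week it was -0.0046, 0.20 and 0.25 on 5% protein, and -0.22, -0.17 and -0.085 on 20% protein. The 2 diets did not overlap at either time. The subunits had like levels, with a median of 0.35 and -0.35 in the small subunit and 0.34 and -0.34 in the large subunit on 5% and 20% protein at 4 weeks.

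**Figure D1:**
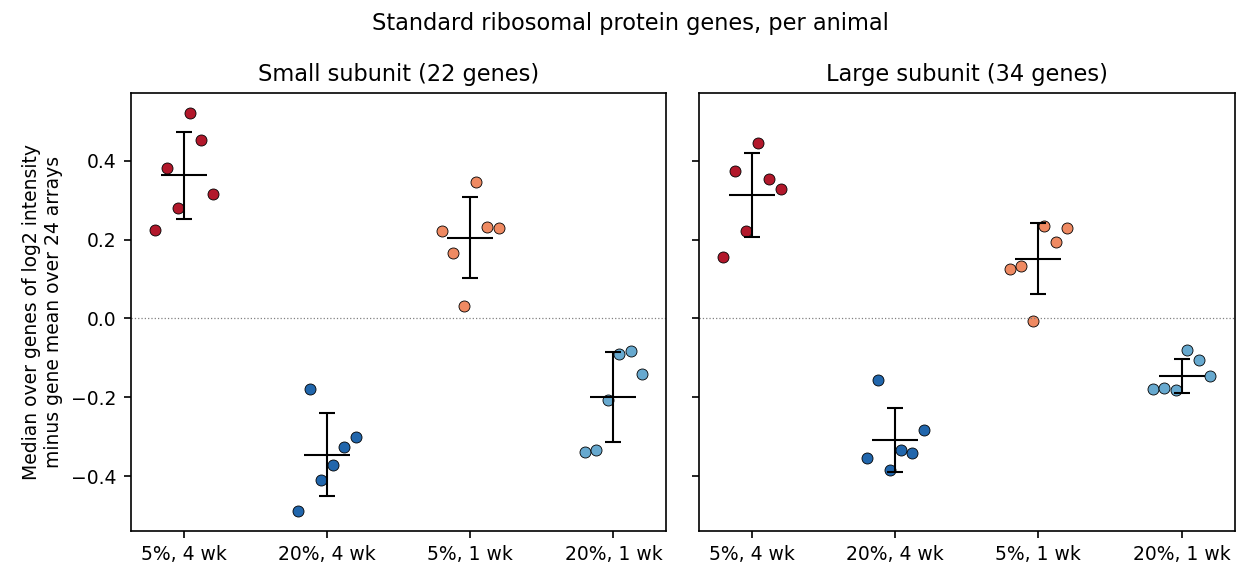
Each point is 1 animal, placed at the median over the standard genes of a subunit of log2 intensity minus the gene's mean over 24 arrays; the lines are group means with SD (n = 6). At 4 weeks the 5% animals lie above 0 and the 20% animals below 0 in both subunits, and at 1 week the gap between the diets is smaller.

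In the small subunit, 21 of 22 standard genes were called higher at 4 weeks, with a median difference of 0.71. The proteins at the mRNA entry and in the decoding centre were measured by 4 genes, and all 4 were called higher. Rps3, which lies at the entry, differed by 0.79 ± 0.08 (SE, adjusted p = 1.39e-07), Rps15 of the decoding region by 0.60, and Rps9 and Rps2, also at the entry, by 0.54 and 0.32. Around the mRNA exit and the platform, 4 of 4 genes were called higher, namely Rpsa (0.90), Rps14 (0.72), Rps26 (0.71) and Rps28 (0.64). Rps6, the protein phosphorylated by the S6 kinases downstream of mTORC1, differed by 0.62 ± 0.09 (adjusted p = 2.49e-05). The smallest called difference in this subunit was that of Rps29, 0.21 ± 0.07 (adjusted p = 0.0182), and its call was lost without animal 72 of the 20% group (0.18, adjusted p = 0.0525) and with the run of animal numbers as a term (0.22, adjusted p = 0.0551).

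The standard genes of this subunit with the largest differences were Rps12, Rps19, Rps24 and Rps15a. Rps12, a protein of the head, had a log2 intensity of 10.83, 11.08 and 11.30 on 5% protein at 4 weeks (lowest, median and highest), and of 9.13, 9.83 and 10.28 on 20% protein. The groups lay apart by more than 0.5, and the difference was 1.30 ± 0.16 (a fold of 2.46, adjusted p = 1.37e-06). Rps19, needed to process the precursor of the small subunit rRNA, had 11.06, 11.42 and 11.63 on 5% protein, and 10.08, 10.32 and 10.46 on 20% protein. Its groups did not overlap either, and the fold was 2.15 (adjusted p = 1.63e-08). Rps24 had 10.05, 10.28 and 10.50 on 5% protein and 8.83, 9.31 and 9.54 on 20% protein, a difference of 1.03 ± 0.13 (adjusted p = 1.72e-06). Rps15a differed by 0.93 ± 0.16 (adjusted p = 0.000135). Loss of 1 copy of certain ribosomal protein genes causes Diamond-Blackfan anaemia in humans. Across both subunits, 7 genes of a partial list of 9 were measured (Rps7, Rps19, Rps24, Rps26, Rpl5, Rpl11 and Rpl35a). Other genes of this disease are not on the list. All 7 were called higher at 4 weeks, with a median of 0.71 and a range of 0.40 to 1.10. Of all standard genes 96.4% were called higher at that time.

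In the large subunit, 33 of 34 standard genes were called higher at 4 weeks, with a median difference of 0.62. Rplp0 and Rpl12 form the base of the stalk, where elongation factors bind. Rplp0 had 12.24, 12.34 and 12.41 on 5% protein and 11.49, 11.53 and 11.68 on 20% protein, and Rpl12 had 12.23, 12.37 and 12.50 on 5% protein and 11.32, 11.46 and 11.51 on 20% protein. The spread within each of these groups was below 0.3, and the differences were 0.78 ± 0.06 for Rplp0 (adjusted p = 6.18e-10) and 0.92 ± 0.06 for Rpl12 (adjusted p = 5.2e-10).

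Rpl5 and Rpl11 carry the 5S rRNA into the large subunit and, when not in a ribosome, bind Mdm2. Rpl5 differed by 0.54 ± 0.09 (adjusted p = 0.000105) and Rpl11 by 0.66 ± 0.07 (adjusted p = 3.64e-07). Of the proteins that line or surround the exit tunnel, 7 of 7 measured were called higher, with a median of 0.62, from 0.44 for Rpl39 to 0.75 for Rpl4. Near the peptidyl transferase centre, Rpl3 differed by 0.74 and Rpl10 by 0.42, and both were called. The largest difference among the standard genes of this subunit was that of Rpl13, with 10.67, 10.89 and 11.18 on 5% protein and 9.70, 9.88 and 10.25 on 20% protein. Its groups did not overlap, and the difference was 1.03 ± 0.10 (a fold of 2.04, adjusted p = 1.08e-07).

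**Figure D2:**
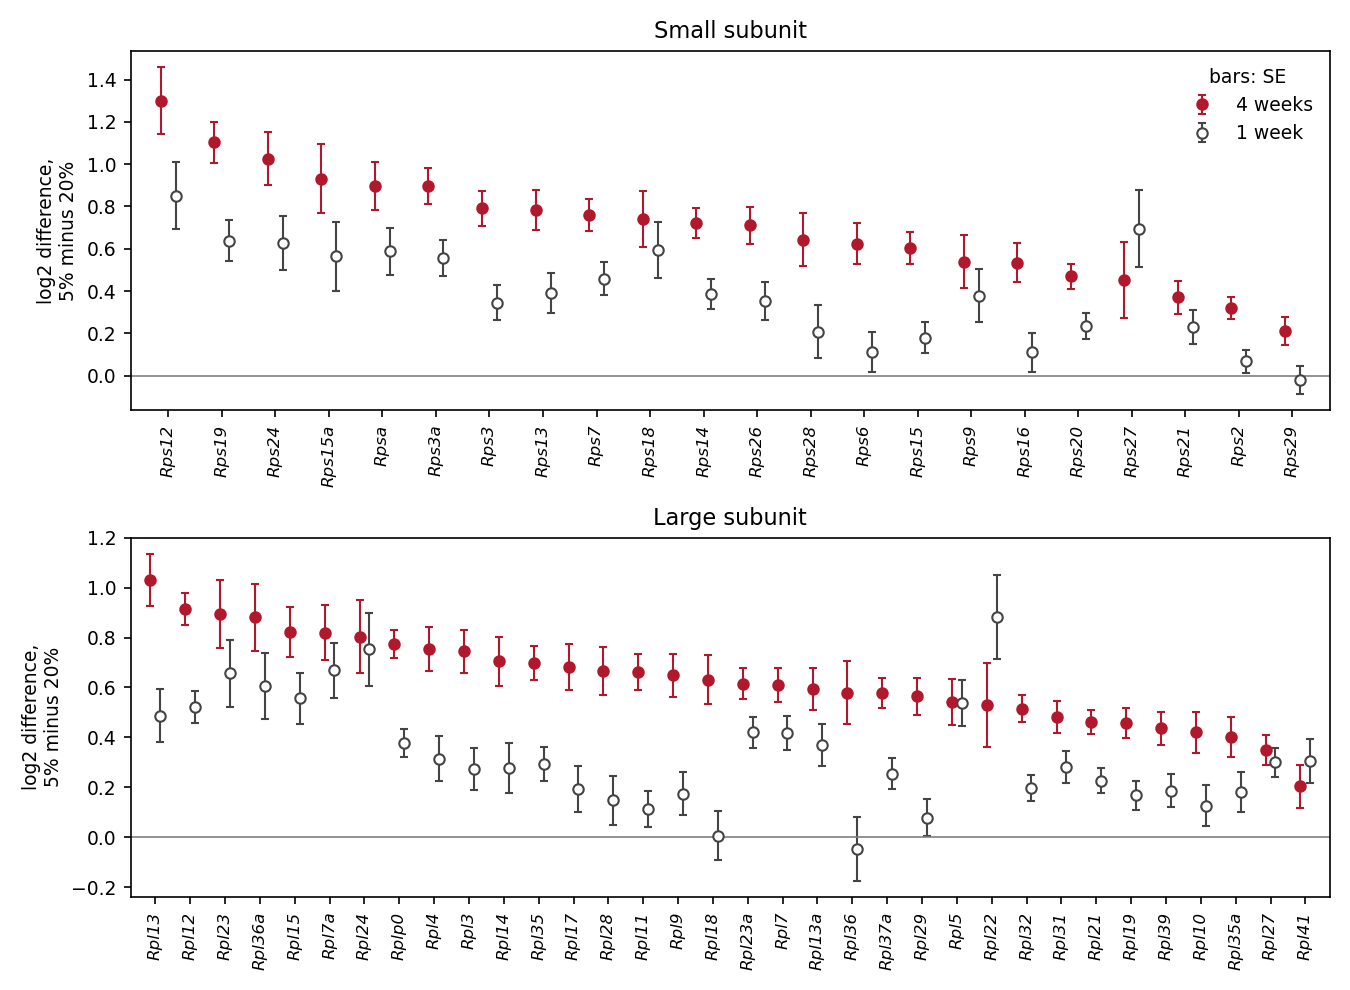
Fitted difference in log2 intensity, 5% minus 20% protein, for each of the 22 small and 34 large subunit standard genes, with filled points for 4 weeks and open points for 1 week; bars are standard errors. All 56 filled points lie above 0, from 0.20 (Rpl41) to 1.30 (Rps12), and most open points lie below the filled ones.

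After 1 week the same direction was present and smaller. Of the 117 members, 49 were called higher and none lower, against 1.86% and 2.44% of all genes. An unadjusted p below 0.05 was found in 70 members, against 3052 of all 17245 genes. The median difference was 0.25 over the members and -0.0081 over all genes. The groups did not overlap in 31 members, with the 5% animals above, against 1.2% of all genes. Among the 56 standard genes, 35 were called higher, 54 had a difference above 0 against 47.7% of all genes, and the median was 0.31, with 0.38 in the small and 0.29 in the large subunit. Leaving out the 3 animals with the numbers 51 to 53 from the 20% group brought the number of members called to 22, and leaving out those numbered 77 to 79 brought it to 48.

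The largest differences at 1 week were those of Rpl22, Rps12 and Rpl24. Rpl22, a large subunit protein that also binds other RNAs, had 10.11, 10.44 and 10.69 on 5% protein at 1 week and 9.09, 9.61 and 9.96 on 20% protein. Its groups did not overlap, and the difference was 0.88 ± 0.17 (adjusted p = 0.00298). At 4 weeks its groups overlapped, with 9.81, 10.33 and 10.45 on 5% protein and 9.10, 9.84 and 10.07 on 20% protein, a difference of 0.53 ± 0.17 (adjusted p = 0.0208). That 4-week call was lost when animal 29 (difference 0.41, adjusted p = 0.0626) or animal 63 (difference 0.48, adjusted p = 0.0532) of the 20% group was left out and when the run of animal numbers was a term in the fit (difference 0.49, adjusted p = 0.0916). Rps12 differed by 0.85 ± 0.16 at 1 week (adjusted p = 0.00239). Rpl24, at the interface of the subunits, differed by 0.75 ± 0.15 (adjusted p = 0.00358). Rplp0 had 11.94, 12.08 and 12.22 on 5% protein and 11.65, 11.72 and 11.75 on 20% protein, and Rps19 had 10.88, 11.16 and 11.30 on 5% protein and 10.37, 10.51 and 10.61 on 20% protein. Neither gene's groups overlapped.

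The differences at the 2 times compare different animals, but their calls come from the same limma fit. That fit pools the spread of a gene over all groups, so the 2 sets of calls are not independent. The share of all genes called at both times is not given here, so the overlap has no background to be set against. The 2 sets of calls shared 46 members. These were 46 of the 84 called higher at 4 weeks and 46 of the 49 called higher at 1 week. A further 38 were called at 4 weeks alone and 3 at 1 week alone, and 30 at neither. Each of the 56 standard genes was called higher at 1 time or the other. Rpl41 and Rps27 were the standard genes called at 1 week alone, with differences of 0.31 ± 0.09 (adjusted p = 0.0465) and 0.70 ± 0.18 (adjusted p = 0.0271). Both calls were lost on leaving out single animals. The call of Rpl41 was lost when any 1 of 17 animals was left out, with adjusted p up to 0.102. That of Rps27 was lost with any 1 of 6, up to 0.084. The 17 include 4-week animals such as animal 22. Without animal 22 the 1-week difference of Rpl41 stayed 0.31 and its adjusted p was 0.0501.

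**Figure D3:**
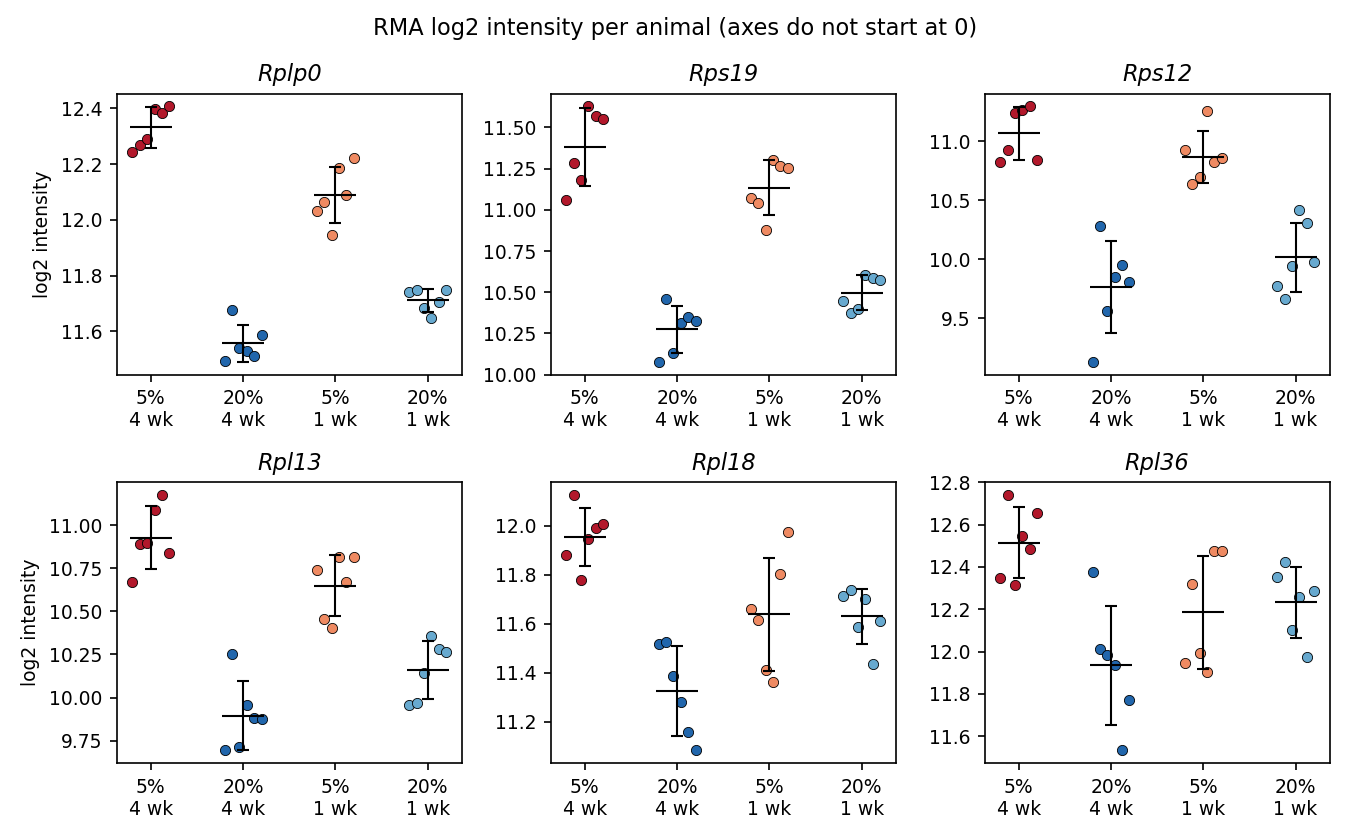
RMA log2 intensity per animal for 6 members in the 4 groups, with group means and SD (n = 6 each); the vertical axes differ between genes and do not start at 0. Rplp0, Rps19, Rps12 and Rpl13 separate the diets at both times, and Rpl18 and Rpl36 have a diet difference at 4 weeks with overlapping groups at 1 week.

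Whether the diet difference itself changed with time was tested as the difference at 4 weeks minus the difference at 1 week. It was called larger at 4 weeks in 27 of 117 members and smaller in none, against 3.54% and 2.2% of all genes. An unadjusted p below 0.05 was found in 48 members, against 3620 of all 17245 genes. The median of this change was 0.23 over the members, 0.32 over the standard genes and 0.0027 over all genes. Among the standard genes it was above 0 in 53 of 56, against 50.5% of all genes. It was called in 5 of 22 small subunit and 17 of 34 large subunit genes, with median changes of 0.35 and 0.29. The difference between the subunits was not tested. Rpl22, Rps27 and Rpl41 were the 3 with a larger fitted difference at 1 week, by 0.35, 0.24 and 0.10, and none of these was called. The count of 27 depended on single animals: it was 10 without animal 31 and 13 without animal 32 of the 5% group at 4 weeks, 14 without animal 54 and 17 without animal 49 of the 5% group at 1 week, and 14, 16 and 17 without animals 72, 67 and 73 of the 20% group at 4 weeks. It was 13 without the 20% animals 51 to 53 and 15 without the 20% animals 77 to 79 of 1 week.

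Rpl18 and Rpl36 had the largest changes among the standard genes. Rpl18 had 11.78, 11.97 and 12.13 on 5% protein and 11.08, 11.33 and 11.53 on 20% protein at 4 weeks, with no overlap. At 1 week it had 11.36, 11.64 and 11.98 on 5% protein and 11.44, 11.65 and 11.74 on 20% protein, with the 20% range inside the 5% range. The difference was 0.63 ± 0.10 at 4 weeks and 0.0065 ± 0.10 at 1 week, and their difference was 0.62 ± 0.14 (adjusted p = 0.012). Rpl36 differed by 0.58 ± 0.13 at 4 weeks and by -0.047 ± 0.13 at 1 week, a change of 0.63 ± 0.18 (adjusted p = 0.0392), and that call was lost when any 1 of 14 animals was left out, with adjusted p up to 0.0709.

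The change with time was called without loss on leaving out each animal in turn in 9 of the 22 called members described here. These were Rplp0 (0.40 ± 0.08, adjusted p = 0.00555), Rpl11 (0.55 ± 0.10, adjusted p = 0.00414), Rpl12 (0.39), Rpl18, Rpl29 (0.49), its copy Rpl29l2 (0.53), Rpl3 (0.47), Rpl35 (0.41) and Rps15 (0.42). Rps19 was called at 0.46 ± 0.14 (adjusted p = 0.0481), and its call was lost when any 1 of 18 animals was left out, with adjusted p up to 0.091. Of the pair that carries the 5S rRNA, Rpl5 differed by 0.54 at both times, with a change of 0.0049 ± 0.13 (adjusted p = 0.99), whereas Rpl11 differed by 0.66 at 4 weeks and 0.11 at 1 week. The difference between these 2 genes was not tested.

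Within a diet, few members were called between the times. No run of animal numbers held animals of both times, so time and run cannot be told apart in these comparisons. On 5% protein 8 members were called higher at 4 weeks than at 1 week and none lower, against 4.15% and 4.13% of all genes, with a median change of 0.10. The 8 were Rplp0 (0.24 ± 0.06, adjusted p = 0.00957), Rpl11, Rpl18, Rpl28, Rpl29, Rps2 and the copies Rpl29l2 and Rps28l1, with changes from 0.17 to 0.39. On 20% protein 3 members were called lower at 4 weeks than at 1 week and none higher, against 1.5% and 1.02% of all genes, with a median change of -0.12. These 3 were Rpl3 (-0.32 ± 0.09, adjusted p = 0.0415), Rps15 (-0.28 ± 0.08, adjusted p = 0.0418) and Rpl11 (-0.27 ± 0.07, adjusted p = 0.0447). Of the 3 calls on 20% protein, 0 were left when each array was centred on its median, and 0 to 5 when 1 animal was left out: 0 without any of animals 67, 72, 51, 77 and 79, 1 without any of animals 63, 73, 49, 52 and 75, and 5 without animal 54. On 5% protein the count was 4 without animal 31 or 32, 5 without animal 54 and 17 without animal 22. In 51 of 56 standard genes the fitted change on 5% protein was above 0, against 53.8% of all genes. On 20% protein it was above 0 in 4 of 56, against 51.5% of all genes. The largest fitted changes, in the copies Rps26l1 (-0.55) and Rpl10l1 (0.51) on 5% protein and in Rpl39l1 (0.44) and Rps4y2 (-0.40) on 20% protein, were not called.

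The 60 copies and paralogs had a wider range of differences. Apart from Rpl3l and Rps4y2, their symbols carry a standard gene's name with an added l and number. Of the 60, 57 are protein coding in RefSeq. Such copies share much of their sequence with the standard gene, so their probes may read its mRNA as well, and whether each copy is transcribed in liver was not tested. At 4 weeks 30 of the 60 were called higher and 1 lower (50% and 1.67%, against 13.4% and 12.4% of all genes), with a median difference of 0.28. At 1 week 14 were called higher (23.3%, against 1.86% of all genes). The count followed the intensity of the probe set: of 22 copies with a mean log2 intensity of 6 or more, 19 were called higher at 4 weeks (median 0.63), and of 38 dimmer copies, 11 were (median 0.17).

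Among the large subunit copies, the largest differences at 4 weeks were those of Rpl15l1 (1.07 ± 0.12, adjusted p = 3.8e-07), Rpl27l7 (1.01), Rpl23al4 (0.98) and Rpl36Al2 (0.97). Rpl15l1 had 10.95, 11.23 and 11.38 on 5% protein and 9.82, 10.11 and 10.48 on 20% protein, with no overlap. The copy Rpl27al2 was the member called lower. It had 4.48, 4.74 and 4.94 on 5% protein and 4.80, 5.13 and 5.17 on 20% protein at 4 weeks, so the groups overlapped, and the difference was -0.35 ± 0.09 (adjusted p = 0.00323). At the other end, Rpl23al5 (-0.12), Rps26l1 (-0.089), Rpl39l1 (-0.094), Rpl35l2 (-0.040), Rps12l4 (0.06), Rps10l2 (0.16) and Rpl30l1 (0.18) were not called at 4 weeks.

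Of the paralogs with a distinct protein, Rpl3l is the form of Rpl3 made in heart and skeletal muscle. It had 4.20, 4.30 and 4.38 on 5% protein and 4.33, 4.42 and 4.71 on 20% protein at 4 weeks, near the low end of the scale, and its difference of -0.14 ± 0.08 was not called (adjusted p = 0.178). Rpl7l1, a relative of Rpl7 that takes part in assembly of the large subunit, differed by 0.36 ± 0.12 (adjusted p = 0.0237), and its call was lost without animal 23 of the 5% group or animals 72 or 73 of the 20% group, with adjusted p up to 0.0741, and with the run of animal numbers as a term (0.24, adjusted p = 0.22). Rps4y2, a paralog of Rps4x by name, had 7.45, 8.04 and 8.29 on 5% protein and 7.08, 7.28 and 7.42 on 20% protein at 4 weeks, with no overlap, and 7.27, 7.62 and 7.93 on 5% protein and 7.27, 7.52 and 8.14 on 20% protein at 1 week. Its difference was 0.68 ± 0.15 at 4 weeks (adjusted p = 0.00143) and -0.055 ± 0.15 at 1 week. The change between the times was 0.74 ± 0.21 (adjusted p = 0.0426), and that call was lost when any 1 of 14 animals was left out, with adjusted p up to 0.0818. Rps19bp1 differed by 0.16 ± 0.11 and was not called (adjusted p = 0.313).

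**Figure D4:**
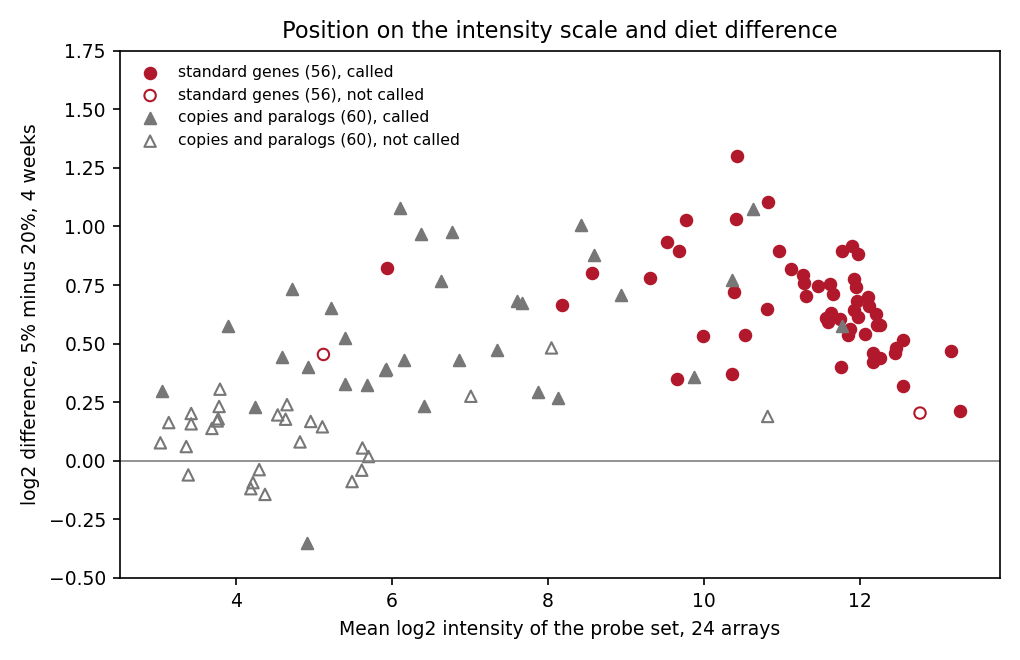
Mean log2 intensity of the probe set over 24 arrays (horizontal) against the fitted 4-week difference, 5% minus 20% protein (vertical), for 56 standard genes (circles) and 60 copies and paralogs (triangles); filled symbols were called. Copies with a mean below 6 lie mostly near 0, and the largest standard differences lie between 9 and 11.

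Among the standard genes the difference was smaller at the bright end. The 16 with a mean log2 intensity of 12 or more had a median difference of 0.48 at 4 weeks, the 22 between 11 and 12 had 0.71, the 14 between 9 and 11 had 0.84 and the 4 below 9 had 0.73. Spearman's rho between mean intensity and difference was -0.50 over the 56 standard genes and 0.60 over the 60 copies. Both are given as descriptions across genes that share the same 24 arrays, and brightness of a probe set depends on its probes as well as on the amount of mRNA. Rps29 and Rpl41, among the brightest, had differences of 0.21 and 0.20.

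The choice of 1 probe set per gene left much of the family's signal aside. In a fit of all 29214 probe sets, the members had 322 probe sets, of which 282 were called higher and 2 lower at 4 weeks, and 171 higher and none lower at 1 week. Over all probe sets, 12.4% were called higher and 9.66% lower at 4 weeks, and 2.71% higher and 1.73% lower at 1 week. Probe sets of 1 gene are not separate evidence, and 46 of the 322 are of Rpl21 and 44 of Rpl7a. All 9 probe sets of Rps19 were called higher at 4 weeks, from 1.09 to 1.16, and so were all 4 of Rps12, from 1.25 to 1.31, and all 46 of Rpl21, from 0.41 to 0.65. Rpl7a had 44 probe sets that ranged from -0.42 to 1.06, with 42 called higher and 1 lower. Rpl29l2 had 1 bright probe set that was called (0.58) and 1 dim one at -0.19, and its calls were lost when the 2 were averaged. A further 91 probe sets carried several ribosomal symbols, and 91 were called higher at 4 weeks and 62 at 1 week. They include the 13 standard genes with no probe set of their own, whose brightest probe sets differed by 0.51 (Rpl38) to 0.88 (Rpl27a) at 4 weeks and were all called higher. Rplp1 and Rplp2, the acidic proteins that bind Rplp0 in the stalk, are among them: Rplp1 differed by 0.79 at 4 weeks and 0.41 at 1 week, and Rplp2 by 0.62 at 4 weeks and -0.0090 at 1 week.

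Within a group the standard genes also varied together from animal to animal. The mean correlation between pairs of standard genes, after the group means were removed, was 0.31 over the 24 arrays, against 0.031 for the copies, 0.10 for the mitochondrial ribosomal proteins and 0.0092 over all genes. The genes share the arrays and their scaling, so these values are descriptions. In the 5% group at 1 week, animal 54 had the lowest family level, and without it 50 members were called higher at 1 week.

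The titles number the animals, and the numbers fall into 4 runs, 22 to 32 and 59 to 73 at 4 weeks and 49 to 54 and 74 to 79 at 1 week. What a run stands for is not given in the sources used here. Within the first run, with 5 animals on 5% and 2 on 20% protein, 71 members were called higher and 1 lower at 4 weeks, against 8.32% of all genes higher. The other held 1 animal on 5% and 4 on 20% protein. With that lone animal assumed to vary like the other groups, 57 members were called higher and none lower, against 6.83% of all genes higher, but its own spread is unknown. At 1 week the runs held 3 animals of each diet, and 30 and 29 members were called higher and none lower, against 2.86% and 4.04% of all genes higher. The median differences were 0.46 and 0.53 at 4 weeks and 0.26 and 0.25 at 1 week. The diet difference at 1 week was not called different between the runs by limma in any of the 117 members, against 7.29% of all genes. An unadjusted p below 0.05 was found in 2 members, against 3562 of all 17245 genes. The median of the difference between the runs was 0.012 over the members.

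The diet difference was set beside the C and T run near the annotated start, which in some genes ends before the start. The 37 standard genes with a run of at least 7 had a median 4-week difference of 0.68, from 0.32 to 1.03, and the 11 without had a median of 0.66, from 0.20 to 1.30. Rps12 and Rps19, shown above without a run, are among the 11. Whether the annotated start is the one used in liver was not tested.

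Other genes of ribosome production and of the TOP class were described from lists. Of 16 further mRNAs with a TOP motif, 16 were called higher at 4 weeks and 7 at 1 week, with medians of 0.57 and 0.24. Over all genes 13.4% were called higher at 4 weeks and 1.86% at 1 week. Those with the smallest p at 4 weeks were Rack1 (0.70 ± 0.08, adjusted p = 3.7e-07), a scaffold on the small subunit, Eef1g (0.75), a subunit of an elongation factor complex, and Eef2 (0.61), the translocation factor. Eef1g differed by less than 0.1 at 1 week and was not called. Of 86 ribosome assembly genes, 71 were called higher and 1 lower at 4 weeks (82.6% and 1.16%, against 13.4% and 12.4% of all genes), with a median of 0.64. At 1 week 1 was called higher, with a median of 0.17. That is 1.16% of the list, below the 1.86% of all genes. Nhp2 of the H/ACA particles (1.18 ± 0.15, adjusted p = 2.91e-06), Pes1 of the large subunit pathway (0.90) and the nucleolar chaperone Npm1 (1.32) led the list by p, and Nop10, a partner of Nhp2, was the one called lower (-0.19, adjusted p = 0.0435).

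Of 14 measured subunits and factors of RNA polymerase I, which makes the large rRNA precursor, 11 were called higher at 4 weeks and none at 1 week, against 13.4% and 1.86% of all genes. Polr2e, a subunit shared by the nuclear polymerases, differed by 0.78, Polr1e by 1.47 and the initiation factor Taf1b by 0.96. Of 29 genes of mTORC1 and related regulators, 7 were called higher and 2 lower at 4 weeks (24.1% and 6.9%, against 13.4% and 12.4% of all genes), with a median of 0.13. Myc, a transcription factor known to raise ribosome production, differed by 2.23 ± 0.32 (adjusted p = 1.07e-05) at 4 weeks and by 0.74 at 1 week (adjusted p = 0.206). Atf4, which is made when amino acids run short, differed by 0.76 at 4 weeks and 0.51 at 1 week, and Ddit4, an inhibitor of mTORC1, by 1.91 and 1.31, each called at both times. Sesn3 (-0.68) and Mxd1 (-0.47) were called lower. Of 9 measured genes named as ribosomal S6 kinases, Rps6kc1 (0.46) and Rps6ka5 (0.76) were called higher at 4 weeks, 22.2% against 13.4% of all genes. Such a name does not show that a gene's product acts on Rps6, and this was not tested.

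Mitochondrial ribosomal proteins, which serve a separate ribosome, gave a smaller difference. The 65 genes with Mrpl and Mrps symbols include Mrps17-ps1, a symbol marked as a pseudogene, a kind left out of the cytosolic family. Of the 65, 28 were called higher (43.1%) and none lower at 4 weeks, against 13.4% and 12.4% of all genes, with a median of 0.20. At 1 week none was called in either direction by limma, against 1.86% higher and 2.44% lower of all genes. There 17 of the 65 had an unadjusted p below 0.05, against 3052 of all 17245 genes, and the median of the 65 was -0.02. The contrast between the 2 families of ribosomal proteins was not tested.

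**Figure D5:**
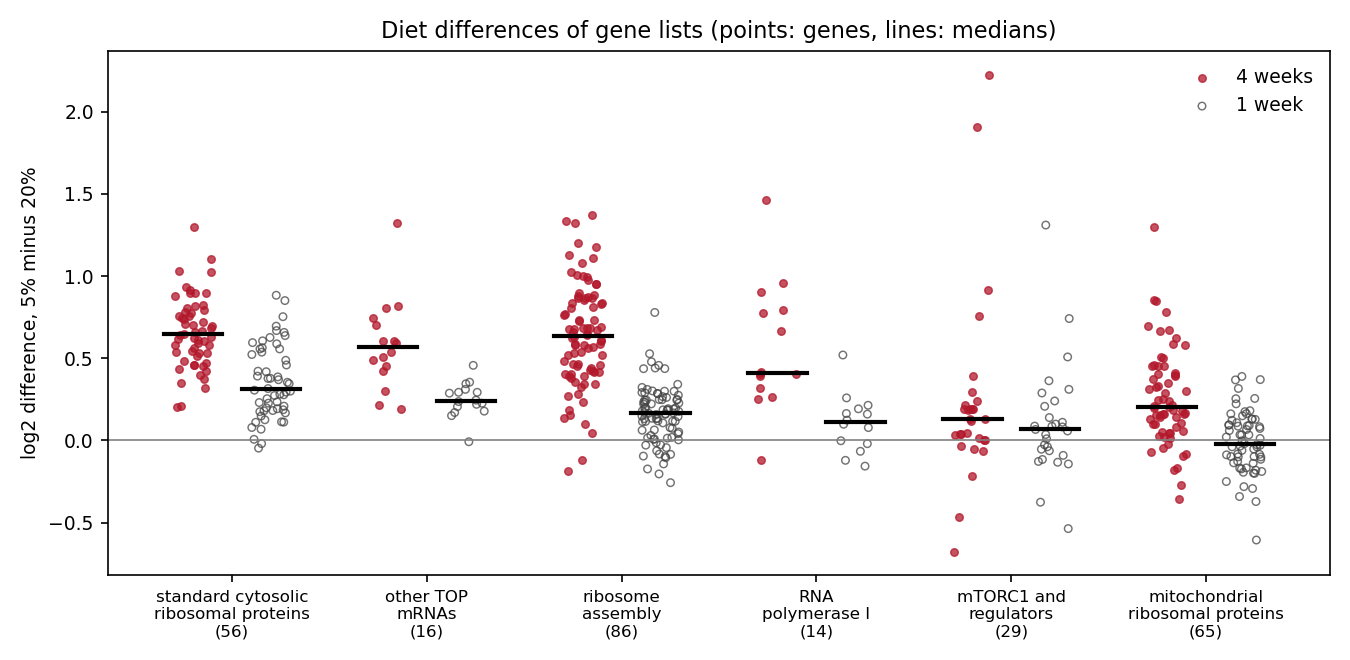
Fitted log2 difference, 5% minus 20% protein, for each gene of 6 lists, with filled points for 4 weeks, open points for 1 week and bars at the medians; the number of genes is given under each list. At 4 weeks the medians are 0.65 for the standard cytosolic ribosomal proteins, 0.57 for other TOP mRNAs, 0.64 for ribosome assembly and 0.20 for mitochondrial ribosomal proteins, and at 1 week they are 0.31, 0.24, 0.17 and -0.02.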

How the data were processed

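Liver RNA of 24 rats was hybridised to Affymetrix whole-transcript arrays, 1 per animal. Total RNA was the input, without removal of ribosomal RNA, and labelled cDNA was hybridised, per the labels. The deposited values are unlogged RMA intensity, which the authors made by background correction, quantile normalization and summary over probes, per the labels and the submitters' processing notes. No version is given. The 29214 probe sets ran from 3.27 to 15793, and array medians from 42.4 to 45.5. For arrays, their number limits the precision.

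From these values log2 was taken, and probe sets with 1 symbol were kept (18644), with the highest mean per gene (17245 genes). Group means were fitted with limma 3.58.1 under R 4.3.3, using lmFit and then eBayes without trend or robust estimation, with 20 residual degrees of freedom. All p-values are two-sided and adjusted over all genes, and measure the spread between these rats. The method was tested on simulated data. Arrays have no detection call, so a fold near the low end of the scale may be understated.

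Members and lists were chosen with earlier results of these data known. Genes are named by a rule: Rplp0 and Rps19, per subunit the 5 largest and 3 smallest differences at 4 weeks, the 3 at each end at 1 week, the 4 largest changes with time, the 2 largest per diet, members called lower, paralogs, and per list the 3 called genes with the smallest p in each direction. Members named for their role, their start sequence, their probe sets or a missing call were named after their values were seen. A small subunit copy that the rule names is not reported here. Of the members' Entrez identifiers, 116 were found in RefSeq and 0 symbols differed. No genome build is named in the files, and the sequences come from GRCr8 tables, matched by Entrez identifier. Alternatives were another normalization, centring, offset, probe set summary, filter and variance estimate, run of animal numbers and the number (code column) of the array code in the titles as terms, its letter (code row) as a random block, single runs, and leaving out each animal. Leaving out the 20% animals of 1 run, and testing every probe set, were chosen after seeing the data.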

Additional observations from a re-analysis of the deposited data

Results flagged for a closer look

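In 244 groups of 6 animals, for the genes named and the family levels, 18 had 1 animal whose gap to its neighbour exceeded Dixon's critical value of 0.625. Chance gives about 1 in 20 groups. No family level was among them. In the 5% group at 4 weeks, animal 22 was lowest for Rpl23a (12.1), animal 59 highest for Rpl30l1 (4.19) and animal 23 highest for Rpl7l1 (10.5). In the 20% group at 4 weeks, animal 63 was lowest for Rpl27al2 (4.80) and highest for Rps26l1 (6.30), and animal 29 highest for Rpl3l (4.71) and Rps2 (12.6). In the 5% group at 1 week, animal 54 was lowest for Rpl11 (11.9), Rpl15l1 (10.3), Rpl23al4 (6.40) and Rpl28 (7.89), animal 74 was highest for Rpl23a (12.3), Rpl23al5 (4.83) and Rpl39l1 (5.28), and animal 49 lowest for Rps10l2 (2.99). In the 20% group at 1 week, animal 53 was lowest for Rpl12 (11.5), animal 51 lowest for Rpl41 (12.2) and animal 77 highest for Rpl27l7 (8.47). These are log2 intensities.

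In 22 described members the diet difference was called larger at 4 weeks than at 1 week by the test of that change. The changes were 0.74 in Rps4y2, 0.63 in Rpl36, 0.62 in Rpl18, 0.60 in Rpl15l1, 0.55 in Rpl11, 0.54 in Rpl13, 0.53 in Rpl29l2, 0.52 in Rpl28, 0.51 in Rps6, 0.49 in Rpl17 and Rpl29, 0.47 in Rpl3, 0.46 in Rps19, 0.45 in Rps3, 0.44 in Rpl4, 0.42 in Rps15, 0.41 in Rpl35, 0.40 in Rplp0, 0.39 in Rpl12, 0.32 in Rpl37a, 0.29 in Rpl19 and 0.25 in Rps2.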

How the results depend on the processing

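Over the counts and medians of the members in all comparisons, 155 values under other settings stayed near those reported and 22 moved. The number called higher at 1 week, reported as 49, was 29 with the code row as a random block, 30 and 29 within single runs and 22 without the 20% animals 51 to 53. At 1 week no code row held both diets, so row and diet cannot be told apart there. The 27 members with a larger difference at 4 weeks were 11 with run as a term, 13 without the 20% animals 51 to 53 and 15 without 77 to 79. The median at 4 weeks was 0.61 after quantile normalization and 0.59 without dim genes, and the 1 member called lower was 0 within the run 59 to 73. On 5% protein the 8 called higher at 4 weeks were 18 after quantile normalization, 15 with arrays centred, 13 with an offset of 16, 14 without dim genes, 4 with run and 5 with code column as a term. On 20% protein the 3 called lower were 1 after quantile normalization, 0 with arrays centred, 6 with the offset, 0 with code column or row, and 1 without the 20% animals 77 to 79.

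With 1 animal left out, 80 to 85 members were called higher at 4 weeks, 37 to 50 at 1 week and 10 to 31 for the change with time (0 to 1 smaller). On 5% protein 4 to 17 were called higher at 4 weeks than at 1 week, and on 20% protein 0 to 5 lower. Fitted differences that changed sign were not called after the change. As reported they ran up to 0.35 (Rps26l1 at 1 week), and Rpl41 at 4 weeks was 0.20. At 1 week their values became, after quantile normalization, Rpl27al2 (0.013), Rpl36 (0.027) and Rps29 (0.062), with arrays centred, Rpl27al2 (0.019) and Rps29 (0.0097), and with the code row block, Rpl18 (-0.0094) and Rpl27al2 (0.0099). Within the run 49 to 54 they were Rpl17 (-0.037), Rpl18 (-0.12), Rpl23al5 (-0.0076), Rpl27al2 (0.031), Rpl7l1 (-0.13), Rps12l4 (-0.063) and Rps6 (-0.024), and within 74 to 79 Rpl10l1 (-0.082), Rpl30l1 (0.13), Rpl36 (0.11), Rps28l1 (-0.039) and Rps29 (0.024). Without the 20% animals 51 to 53 they were Rpl27al2 (0.058), Rpl29l2 (-0.0084), Rpl36 (0.013) and Rps26l1 (-0.14), and without 77 to 79 Rpl18 (-0.042), Rpl3l (-0.072), Rpl7l1 (-0.048) and Rps4y2 (0.20). At 4 weeks they were Rpl39l1 (0.19) and Rps26l1 (0.11) within the run 22 to 32, and Rpl23al5 (0.13) and Rpl41 (-0.029) within 59 to 73, which holds 1 animal on 5% protein. With 1 animal left out, uncalled differences at 4 weeks ranged from -0.091 to 0.0085 for Rpl35l2, -0.28 to 0.010 for Rpl39l1 and -0.18 to 0.097 for Rps26l1. At 1 week they ranged from -0.10 to 0.28 for Rpl10l1, -0.061 to 0.062 for Rpl18, -0.058 to 0.021 for Rpl27al2, -0.17 to 0.043 for Rpl30l1, -0.11 to 0.0088 for Rpl36, -0.017 to 0.067 for Rpl3l, -0.041 to 0.0072 for Rps29 and -0.13 to 0.043 for Rps4y2. The cause was not tested.

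Other scalings moved the median of all genes by less than 0.1. The share of calls that are higher was 43.3% at 1 week, 56.2% after quantile normalization and 55.6% with arrays centred. It was 61.7%, 51.5% and 50.9% for the change with time, 40.5%, 51.1% and 66.2% for time on 20% protein, and 50.1% and 60.6% (centred) on 5% protein. No paired analysis was possible because animal numbers are not shared between groups.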
